A study of Mesocricetus auratus with 6 samples.

Results

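The 10 genes described here encode the machinery that licenses DNA replication origins and turns them into active helicases: Mcm2, Mcm3, Mcm4, Mcm5, Mcm6, Mcm7, Mcm10, Cdc6, Cdt1 and Cdc45. They were chosen by name. All 10 were found by gene symbol among the 16078 NCBI Gene IDs of the files, and all 10 passed the filter on low values. The cells were BHK21, an established fibroblast line from the kidney of the golden hamster (Mesocricetus auratus), for which the labels give kidney as tissue and an age of 1 day. The treated group was transfected with STYK1/NOK, a kinase-like membrane protein that the series calls an oncogene, and the control group with the empty mammalian expression plasmid pCMV-Myc. Both groups were lysed 48 after transfection (the labels give no unit of time), and 1 ug of total RNA per library was sequenced. There were 3 libraries per group, called STYK1 1, 2 and 3 and vector 1, 2 and 3 here. Where libraries are listed without names, their values follow these numbers. Whether a group's libraries were separate cultures is not in the labels, so the spread between them may be technical and the p-values measure that spread alone. Nor do they say what share of the cells took up the plasmid, or whether the line was a single clone.

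Each origin of replication is prepared in G1 and used in S phase. The origin recognition complex binds DNA, Cdc6 joins it, and together with Cdt1 they load the ring of Mcm2 to Mcm7 onto DNA as an inactive double hexamer, a step called licensing. At the start of S phase, the kinases CDK and Cdc7-Dbf4 convert the loaded ring into the active helicase by recruiting Cdc45 and the GINS complex, and Mcm10 is needed for the DNA to be unwound. Geminin and ubiquitin ligases then block or destroy Cdt1, so that origins are not licensed again in the same cycle. Genes of this machinery are classical targets of E2F transcription factors in dividing cells. In bulk RNA, a smaller fraction of cells in the phase that makes a transcript and less transcript per cell cannot be told apart.

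All values are FPKM as deposited (fragments scaled to transcript length and to the mapped fragments of the library), so levels of different genes are on a scale per length. Between 14119 and 14339 genes were above 0 in each library. The FPKM values summed to 619840, 554681 and 557946 in vector and to 528160, 530277 and 542638 in STYK1 libraries. Scaling to equal sums therefore raises STYK1 values relative to vector values. The number of fragments per library is not known here. The inverse of the most frequent FPKM ratio to STYK1 1 among low values lay between 0.979 and 1.03. FPKM is already scaled to mapped fragments, so this ratio cannot show whether the libraries had equal depth. The library vector 1 stood apart: its Pearson correlation with the other libraries over 11464 genes was 0.963 to 0.976, against 0.988 to 0.993 for all pairs without it. The differences of the 10 genes are therefore given with and without vector 1. Of 11 fibroblast markers in the files, 5 were at 1 FPKM or more in every library, with Vim between 3650 and 4141 FPKM and Fn1 between 191 and 229 FPKM. The fibroblast collagen genes Col1a1, Col1a2 and Col3a1 lay between 0.4 and 1.02 FPKM in all libraries, and Thy1 between 0 and 0.18 FPKM. All 6 epithelial markers in the files, Epcam and Cdh1 among them, were below 1 FPKM in every library. Of 5 myeloid markers, Cd68 lay between 279 and 351 FPKM and Csf1r between 2.91 and 3.70 FPKM, while Ptprc, Adgre1 and Itgam did not exceed 0.16 FPKM. Of 3 endothelial markers, Cdh5 lay between 4.45 and 9.11 FPKM, while Pecam1 and Tek did not exceed 0.54 FPKM. Of 3 kidney tubule markers, Lrp2 did not exceed 0.01 FPKM, Aqp1 lay between 1.63 and 3.49 FPKM and Pax8 between 0.45 and 1.12 FPKM.

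Mean levels were higher in STYK1 than in vector libraries for 9 of the 10 licensing and helicase genes, from 1.11-fold for Mcm5 to 1.78-fold for Cdc6, while Mcm7 had a ratio of 0.991. None of these differences passed the test: 0 of 10 had an adjusted p under 0.05 (limma-trend on log2(FPKM + 1), Benjamini-Hochberg over 11464 genes), against 0% of all genes tested. With libraries weighted by quality 24 of all genes passed, and again 0 of the 10. In that setting vector 1 had the lowest weight (0.129), followed by STYK1 2 (0.611), against 1.18 to 2.85 for the other libraries. Vector 1 thus counted little in it. The adjusted p-values of the 10 genes (limma-trend) lay between 0.469 for Cdc6 and 0.938 for Mcm7. At an unadjusted p under 0.05, 1 of the 10 was higher (Cdc6) and 0 were lower, against 4.95% of all tested genes higher and 4.88% lower. That split of 568 higher and 560 lower genes became 1269 and 216 with libraries scaled to equal FPKM sums, and 402 and 762 after median centring. It was 1202 and 1163 with quality weights, 165 and 189 without STYK1 1, 210 and 365 without STYK1 2, 336 and 374 without STYK1 3 and 904 and 808 without vector 3. Of the 10 genes, the count higher at an unadjusted p under 0.05 was 0 without STYK1 3, 2 without vector 2 (Cdc6 and Mcm10) and 4 without vector 3 (Mcm2, Mcm4, Cdc6 and Cdt1). Over all genes the counts higher were 336 of 11490, 786 of 11500 and 904 of 11504 in these settings. The count of the 10 was 3 with quality weights (Mcm2, Mcm4 and Cdc6) and 2 with equal FPKM sums (Mcm6 and Cdc6). The counts over all genes were 1202 of 11464 and 1269 of 11477 there. In 1 of the 10, again Cdc6, all STYK1 libraries lay above all vector libraries, against 13.6% of all genes, and in 0 of 10 the reverse held, against 9.44%. With equal FPKM sums 4 of 10 genes had STYK1 libraries above all vector libraries, against 24.4% of all genes, and without STYK1 2 they were 6 of 10, against 20.6%. The count was 3 without vector 2 (19.7% of all genes), 2 without vector 3 (19.4%) and 2 without STYK1 1 (16.6%). The median log2 difference of the 10 was 0.24, against 0.01 over all tested genes, of which 52.7% had a difference above 0. Without vector 1 the median of the 10 was 0.12, against 0.02 over all genes. The count with a difference above 0 was again 9 of 10, against 55.6% of 11455 genes. At an unadjusted p under 0.05 without vector 1 (limma-trend), Cdc6 alone was higher and 0 of 10 were lower, against 4.91% and 4.57% of all genes.

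**Figure D1:**
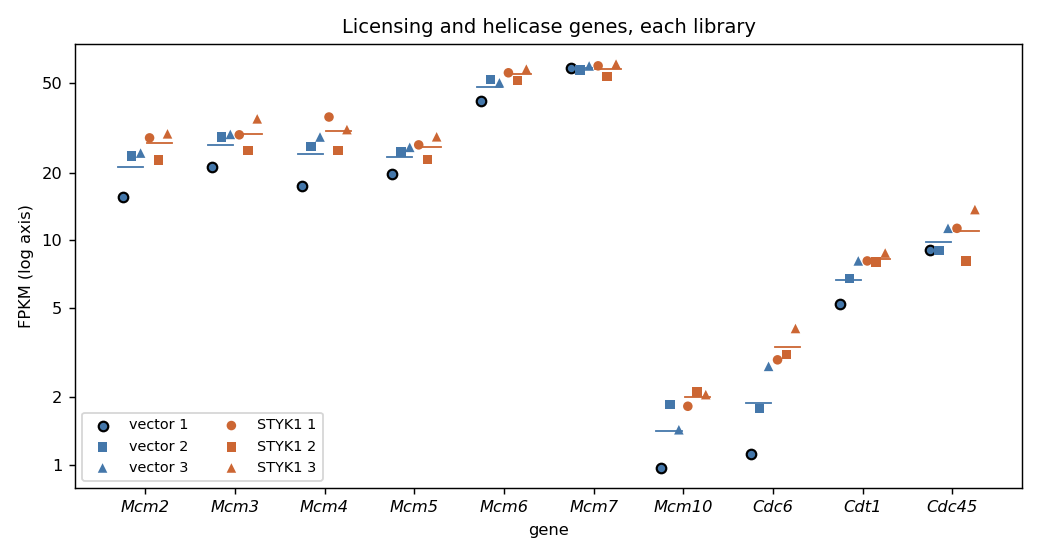
FPKM (log axis) of the 10 licensing and helicase genes in each library, vector in blue and STYK1 in orange, with short lines at the group means and vector 1 outlined in black. Vector 1 is the lowest library for 8 genes, Mcm7 is level across the libraries, and only for Cdc6 do the groups not overlap.

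The subunits Mcm2, Mcm4 and Mcm6 had the largest log2 differences of the ring. Mcm2, the subunit whose tail also binds histones, was at 15.5, 23.7 and 24.4 FPKM in vector and at 28.6, 22.7 and 29.8 FPKM in STYK1 libraries. Vector 1 was the lowest and STYK1 3 the highest, and STYK1 2 lay below vector 2 and vector 3, so the groups overlapped. The means were 21.2 ± 4.95 and 27.0 ± 3.77 FPKM (SD, n = 3 each), and the log2 difference was 0.35 ± 0.18 (SE; 95% interval -0.07 to 0.77; limma-trend, adjusted p = 0.470). Without vector 1 it was 0.15, with an interval of -0.11 to 0.41.

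Mcm4, a catalytic subunit that forms a core subcomplex with Mcm6 and Mcm7, was at 17.5, 26.1 and 28.8 FPKM in vector and at 35.4, 25.1 and 31.1 FPKM in STYK1 libraries. Again STYK1 2 lay below 2 of the vector libraries. The means were 24.1 ± 5.91 and 30.5 ± 5.17 FPKM (SD, n = 3 each), and the log2 difference was 0.34 ± 0.19 (SE), or 0.13 without vector 1. Mcm6 was at 41.8, 51.9 and 50.2 FPKM in vector and at 55.7, 51.4 and 57.8 FPKM in STYK1 libraries, with means of 48.0 ± 5.41 and 54.9 ± 3.24 FPKM. Its groups overlapped only in that STYK1 2 lay between vector 3 and vector 2. The log2 difference of Mcm6 was 0.20 ± 0.10 (SE; 95% interval -0.04 to 0.44), and it was 0.10 without vector 1.

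Mcm3 and Mcm5, which complete the ring beside Mcm2, differed less. Mcm3 was at 21.2, 28.8 and 29.6 FPKM in vector and at 29.5, 25.1 and 34.7 FPKM in STYK1 libraries. Mcm5, which forms the gate of the ring with Mcm2, was at 19.7, 24.7 and 25.9 FPKM in vector and at 26.6, 22.9 and 28.9 FPKM in STYK1 libraries. For both genes vector 1 was the lowest, STYK1 2 the next lowest and STYK1 3 the highest. The log2 differences were 0.16 ± 0.16 (SE) for Mcm3 and 0.15 ± 0.13 (SE) for Mcm5. Without vector 1 they were 0.02, with an interval of -0.26 to 0.29, and 0.04, with an interval of -0.19 to 0.27.

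Mcm7 did not follow the other subunits in vector 1. It was at 58.7, 57.4 and 59.7 FPKM in vector and at 59.8, 53.5 and 60.8 FPKM in STYK1 libraries, with means of 58.6 ± 1.16 and 58.0 ± 3.93 FPKM (SD, n = 3 each). Its log2 difference was -0.02 ± 0.08 (SE; 95% interval -0.21 to 0.18), and -0.01 without vector 1. The sign of this small difference turned under other scalings (0.09 with libraries scaled to equal FPKM sums, 0.02 after quantile normalization). The coefficient of variation of Mcm7 over the 6 libraries was 4.48%, against 10.7% for Mcm6 and 12.8% to 22.2% for Mcm2 to Mcm5. Among the 3980 genes with a mean of 20 to 100 FPKM, a range chosen after the values were seen, the median was 10.3%, and 7.36% of them varied less than Mcm7. Without vector 1 the coefficient of variation was 4.997% for Mcm7, 5.97% for Mcm6 and 8.64% to 14.1% for Mcm2 to Mcm5, and 31.0% of the 3980 genes varied less than Mcm7. The low variation of Mcm7 beside Mcm6 thus rested on vector 1.

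**Figure D2:**
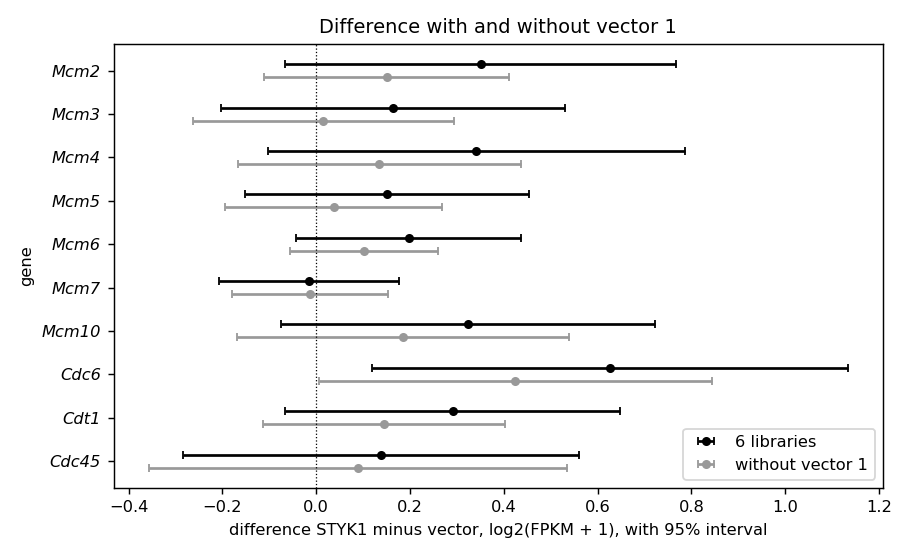
Log2 difference on the log2(FPKM + 1) scale, STYK1 minus vector, with its 95% interval, for each of the 10 genes with all libraries (black) and without vector 1 (grey). With all libraries the interval of Cdc6, 0.12 to 1.13, is the only one above 0, and all 10 differences are nearer to 0 without vector 1.

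The 6 ring subunits occur once each in the hexamer, and their transcripts were not equally abundant. Mcm7 made up 33.7% of the summed Mcm2 to Mcm7 FPKM in vector 1, 26.98% in vector 2 and 27.3% in vector 3, and between 25.03% and 26.7% in the STYK1 libraries. Mcm2 made up 8.90% in vector 1 against 11.2% to 12.2% elsewhere, and Mcm4 10.03% in vector 1 against 12.3% to 15.02% elsewhere. The shares of Mcm5 (11.3% to 11.9%) and Mcm6 (23.0% to 25.6%) stayed within a narrow range over all libraries. The most abundant subunit exceeded the least abundant one 3.78-fold in vector 1 and 2.11-fold to 2.44-fold elsewhere. The summed level of the ring was 174, 213 and 219 FPKM in the vector libraries, and it was 235, 201 and 243 FPKM in the STYK1 libraries.

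**Figure D3:**
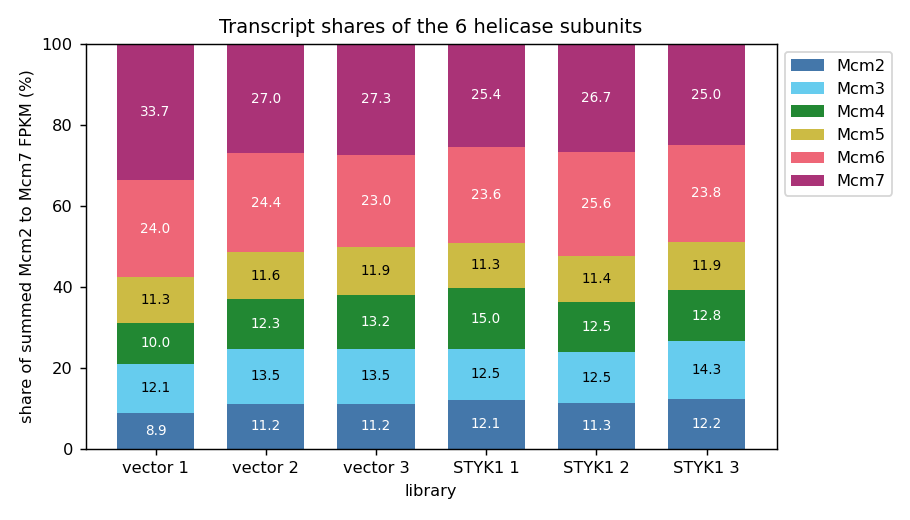
Share of each subunit in the summed Mcm2 to Mcm7 FPKM (percent, stacked to 100) in each library. The share of Mcm7 is 33.7% in vector 1 and lies between 25.03% and 27.3% elsewhere.

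Mcm7 and Mcm6 were the most abundant of the 10 transcripts in all 6 libraries. Mcm7 lay above Mcm6 in 6 of 6 libraries although their ranges over libraries overlapped, and the range of Mcm6 lay above that of Mcm3. The neighbours Mcm3, Mcm4, Mcm5 and Mcm2, with means over the 6 libraries of 28.1, 27.3, 24.8 and 24.1 FPKM, had overlapping ranges and changed places between libraries. Below them came Cdc45 (10.4 FPKM), Cdt1 (7.47 FPKM), Cdc6 (2.62 FPKM) and Mcm10 (1.71 FPKM). Cdc45 lay above Cdt1 in 6 of 6 libraries and Cdc6 above Mcm10 in 5 of 6, in both cases with overlapping ranges.

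Of the loading factors, Cdc6 had the largest difference of the 10 genes. Cdc6, the ATPase that joins the origin recognition complex to load the ring, was at 1.12, 1.78 and 2.74 FPKM in vector and at 2.93, 3.09 and 4.04 FPKM in STYK1 libraries. The groups did not overlap, and the gap between vector 3 and STYK1 1 was smaller than that between any 2 vector libraries. The log2 difference was 0.63 ± 0.22 (SE; 95% interval 0.12 to 1.13; limma-trend, unadjusted p = 0.0215, adjusted p = 0.469), and Cdc6 ranked 354 of 11464 genes by p. Without vector 1 the ratio of means was 1.48 and the log2 difference 0.42, with an interval of 0.005 to 0.84 and an adjusted p of 0.525 (limma-trend). The groups again did not overlap, against 17.9% of all genes higher and 11.9% lower. The adjusted p of Cdc6 lay between 0.134 (libraries weighted by quality) and 0.803 (without STYK1 1) over the alternatives run with limma-trend. Because Cdc6 is at a low level, the log2(FPKM + 1) scale understates its ratio.

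Cdt1, the partner of Cdc6 that carries the ring to the origin, was at 5.18, 6.75 and 8.08 FPKM in vector and at 8.08, 7.98 and 8.76 FPKM in STYK1 libraries. The groups met at the top of the vector group, with vector 3 level with STYK1 1 and above STYK1 2. The means were 6.67 ± 1.45 and 8.27 ± 0.424 FPKM (SD, n = 3 each), and the log2 difference was 0.29 ± 0.16 (SE; 95% interval -0.07 to 0.65), or 0.14 without vector 1. The gene of its inhibitor geminin, Gmnn, singled out after its values were seen, was at 16.9, 14.99 and 17.02 FPKM in vector and at 15.4, 15.3 and 18.5 FPKM in STYK1 libraries. Cdt1 FPKM divided by Gmnn FPKM gave 0.306, 0.450 and 0.475 for the vector libraries and 0.525, 0.522 and 0.475 for the STYK1 libraries. Vector 3 and STYK1 3 thus had the same ratio at this precision, and no test was made of it.

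Of the genes that act at activation, Cdc45, the helicase cofactor that joins the ring together with GINS, was at 9.01, 8.99 and 11.3 FPKM in vector and at 11.3, 8.08 and 13.7 FPKM in STYK1 libraries. STYK1 2 was the lowest of all libraries and STYK1 3 the highest. The log2 difference was 0.14 ± 0.18 (SE), or 0.09 without vector 1, and it was -0.02 without STYK1 3. Mcm10, which despite its name is not part of the ring, was at 0.97, 1.85 and 1.43 FPKM in vector and at 1.82, 2.11 and 2.05 FPKM in STYK1 libraries. Only vector 2 reached into the range of the STYK1 libraries. The means were 1.42 ± 0.440 and 1.99 ± 0.153 FPKM (SD, n = 3 each), and the log2 difference was 0.32 ± 0.17 (SE), or 0.18 without vector 1. It was 0.50 with a pseudocount of 0.1 FPKM and 0.12 with quality weights. Mcm10 was the member nearest to the filter of 1 FPKM, which it passed in both groups, and as for Cdc6 the log2(FPKM + 1) scale understates its ratio of means (1.41).

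Vector 1 was the lowest of the 6 libraries for 8 of the 10 genes, against 36.2% of all tested genes, and the highest for 0 of 10, against 37.1%. STYK1 3 was the highest for 8 of the 10. STYK1 2 was the lowest for the other 2, Mcm7 and Cdc45. The shares of all tested genes that were highest in STYK1 3 or lowest in STYK1 2 were not counted. Relative to the mean of vector 2 and vector 3, the level in vector 1 was 0.496 for Cdc6, 0.591 for Mcm10, 0.637 for Mcm4, 0.645 for Mcm2, 0.699 for Cdt1, 0.725 for Mcm3, 0.780 for Mcm5, 0.819 for Mcm6, 0.889 for Cdc45 and 1.00 for Mcm7. Over all tested genes the same ratio had a median of 1.01 and quartiles of 0.813 and 1.23. The ratio was below that of Cdc6 in 3.04% of genes and below that of Mcm7 in 48.6%.

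The mitotic genes largely moved with the licensing genes from library to library, and the ribosomal protein genes did not. On the log2(FPKM + 1) scale and relative to the vector mean, the mean level of the 10 genes was -0.26, 0.08 and 0.18 in the vector libraries, followed by 0.28, 0.10 and 0.39 for STYK1. The level of 18 mitotic genes was -0.46, 0.17 and 0.29 in vector and 0.39, -0.02 and 0.41 in STYK1 libraries. The level of 63 ribosomal protein genes was 0.25, -0.13 and -0.11 in vector and -0.31, -0.26 and -0.25 in STYK1 libraries. Thus vector 1 had the lowest mean level of mitotic and of licensing genes and the highest of ribosomal protein genes, and 16 of the 18 mitotic genes were lowest in it. Of the lists described below, origin firing (-0.21), licensing turnover (-0.23), E2F and pocket proteins (-0.24) and replisome (-0.12) also had their lowest mean level in vector 1. Origin recognition genes were at 0.004 there and lowest in vector 2 (-0.02). The part of these shifts in the differences of the 10 genes was not tested.

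**Figure D4:**
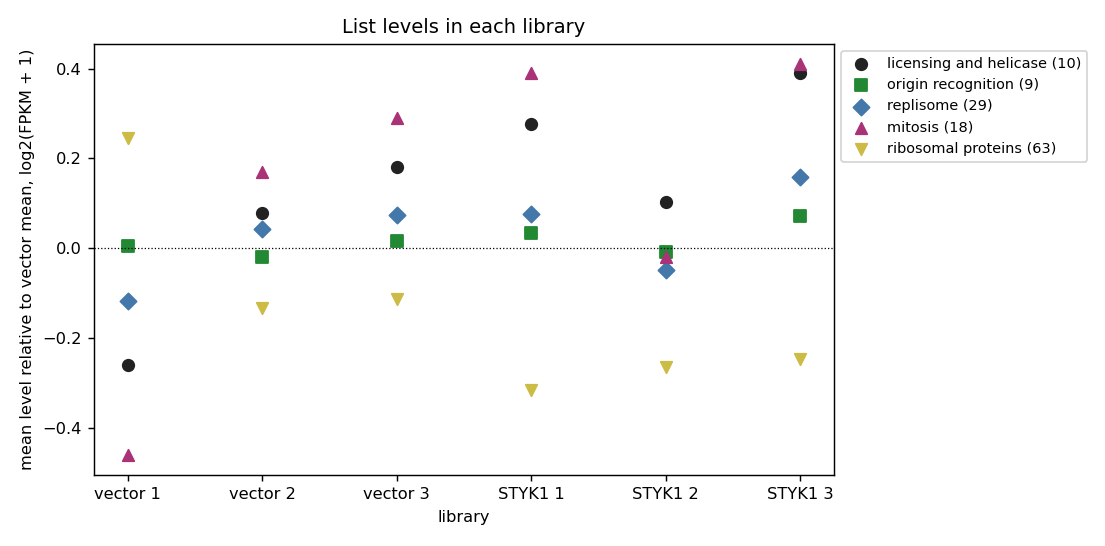
Mean level of 5 gene lists in each library, relative to the vector mean on the log2(FPKM + 1) scale (number of genes in brackets). Licensing, mitotic and replisome genes are lowest in vector 1 and ribosomal protein genes highest there, while origin recognition genes stay between -0.02 and 0.07.

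The genes around the licensing step were read from lists fixed by role. In none of these lists did a member pass the test (limma-trend, adjusted p under 0.05), and the counts at an unadjusted p under 0.05 are given for each. Over all tested genes 4.95% were higher and 4.88% lower at that limit. Of the list for origin recognition and licensing control, 9 genes were in the files and all 9 were tested, among them Orc1 to Orc6. Of these, 0 were higher and 0 lower at an unadjusted p under 0.05 (limma-trend), and the median log2 difference was 0.0022, or 0.03 without vector 1. Orc1, the large ATPase subunit of the complex, was at 3.02, 3.71 and 5.05 FPKM in vector and at 5.38, 3.53 and 5.79 FPKM in STYK1 libraries. Orc3 was at 9.79, 11.3 and 10.5 FPKM in vector and at 12.5, 11.2 and 12.8 FPKM in STYK1 libraries, and Orc6 differed by -0.08 with and without vector 1. Vector 1 was the lowest library for 2 of the 9 genes.

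The origin firing list holds the GINS subunits, the kinase Cdc7 with its activator Dbf4, and factors that recruit Cdc45. Its 10 tested genes had a median log2 difference of 0.12, or 0.06 without vector 1, with 0 higher and 0 lower at an unadjusted p under 0.05 (limma-trend). Topbp1, the scaffold that CDK activity brings to the loaded ring, was at 11.5, 18.7 and 17.95 FPKM in vector and at 21.0, 17.3 and 23.0 FPKM in STYK1 libraries. Ticrr, the vertebrate partner of Topbp1 also called Treslin, was at 2.99, 4.08 and 5.34 FPKM in vector and at 5.59, 5.38 and 4.98 FPKM in STYK1 libraries. Dbf4 was at 19.3, 25.5 and 29.9 FPKM in vector and at 30.6, 27.6 and 30.0 FPKM in STYK1 libraries. The log2 differences of Topbp1, Ticrr and Dbf4 were 0.35, 0.32 and 0.25 with vector 1 and 0.14, 0.15 and 0.09 without it. In these 3 genes, as in most ring subunits, vector 1 was the lowest library. The groups overlapped through vector 2 and vector 3 for Topbp1 and through vector 3 alone for Ticrr and Dbf4.

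The 29 replisome genes (polymerases, primase, clamp and clamp loader, single-strand binding protein and fork protection) had a median log2 difference of 0.04, or 0.01 without vector 1, and 18 were above 0. At an unadjusted p under 0.05 (limma-trend), where 4.95% of all genes were higher and 4.88% lower, 2 replisome genes were higher and 0 lower. They were Rfc1, the large subunit of the clamp loader, at 13.9, 16.3 and 15.1 FPKM in vector and 19.8, 17.99 and 18.4 FPKM in STYK1 libraries, and Pola1, the catalytic subunit of the polymerase that makes primers. Pola1 was at 2.45, 4.28 and 4.12 FPKM in vector and at 5.29, 5.18 and 5.18 FPKM in STYK1 libraries. For both genes the groups did not overlap, the only 2 of the 29, against 13.6% of all genes higher in STYK1 libraries. Without vector 1 the log2 differences were 0.24 for Rfc1 and 0.26 for Pola1, against 0.29 and 0.45 with it. Pold4, a small subunit of polymerase delta, went the other way in value, at 59.3, 36.4 and 36.3 FPKM in vector and 24.3, 38.2 and 31.2 FPKM in STYK1 libraries, and was highest in vector 1 (log2 difference -0.47, or -0.23 without vector 1).

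Of 10 genes for the turnover of licensing factors, 2 were higher and 0 lower at an unadjusted p under 0.05 (limma-trend). The shares of all genes were 4.95% and 4.88%. The median log2 difference of these turnover genes was 0.12, or 0.02 without vector 1. Fbxo5, also called Emi1, restrains the anaphase-promoting complex and so protects geminin. It was at 14.6, 15.9 and 18.7 FPKM in vector and at 21.7, 21.6 and 19.8 FPKM in STYK1 libraries. Cul4a, a scaffold of the ubiquitin ligase that marks Cdt1 for destruction at replicating DNA, was at 38.6, 50.9 and 49.1 FPKM in vector and at 55.2, 62.1 and 53.8 FPKM in STYK1 libraries. For both the groups did not overlap, and without vector 1 the log2 differences were 0.27 and 0.18, against 0.34 and 0.30 with it. In all, 3 of the 10 turnover genes had all STYK1 libraries above all vector libraries, against 13.6% of all genes. Fzr1, also called Cdh1, the activator of the anaphase-promoting complex in G1, was at 37.2, 31.4 and 34.1 FPKM in vector and at 27.8, 28.2 and 32.1 FPKM in STYK1 libraries, which overlapped (log2 difference -0.21, or -0.15 without vector 1).

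Of 13 genes for E2F factors, their dimer partners and the pocket proteins that restrain them, 0 were higher and 0 lower at an unadjusted p under 0.05 (limma-trend). The median log2 difference was 0.17 with vector 1 and 0.05 without it, and vector 1 was the lowest library for 11 of the 13. Rbl1, the pocket protein p107, was at 1.79, 4.88 and 5.93 FPKM in vector and at 6.37, 5.29 and 6.76 FPKM in STYK1 libraries, so that its log2 difference of 0.55 became 0.16 without vector 1. The activator E2f2 was at 5.27, 5.37 and 6.06 FPKM in vector and at 6.55, 6.86 and 6.04 FPKM in STYK1 libraries, a log2 difference of 0.19, or 0.16 without vector 1. Rb1 differed by 0.24, or 0.14 without vector 1. The relatives Mcm8 and Mcm9, which act in recombination and are not part of the replicative ring, differed by 0.15 and -0.02, or by 0.03 and -0.11 without vector 1.

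Of the 18 mitotic genes, 2 were higher (Cenpe and Hmmr) and 0 lower at an unadjusted p under 0.05 (limma-trend). The shares of all genes were 4.95% and 4.88%. Of the 18, 17 had a log2 difference above 0. The median was 0.31 with vector 1 and 0.02 without it, and without it 11 of 18 were above 0. Without STYK1 1, 0 of the mitotic, replisome and turnover genes were higher or lower at an unadjusted p under 0.05 (limma-trend). Over all genes 165 of 11474 were then higher and 189 lower. Of the 63 ribosomal protein genes tested, 1 was higher and 32 lower at an unadjusted p under 0.05 (limma-trend), against 4.95% and 4.88% of all genes, with a median log2 difference of -0.30, or -0.16 without vector 1. The lower count was 38 without vector 1, 3 without STYK1 1, 13 without STYK1 2 and 14 without STYK1 3. It was 19 with equal FPKM sums, 47 with quality weights and 3 after quantile normalization, where the median was -0.05. Ribosomal protein genes have near-identical copies, so single members are uncertain.

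**Figure D5:**
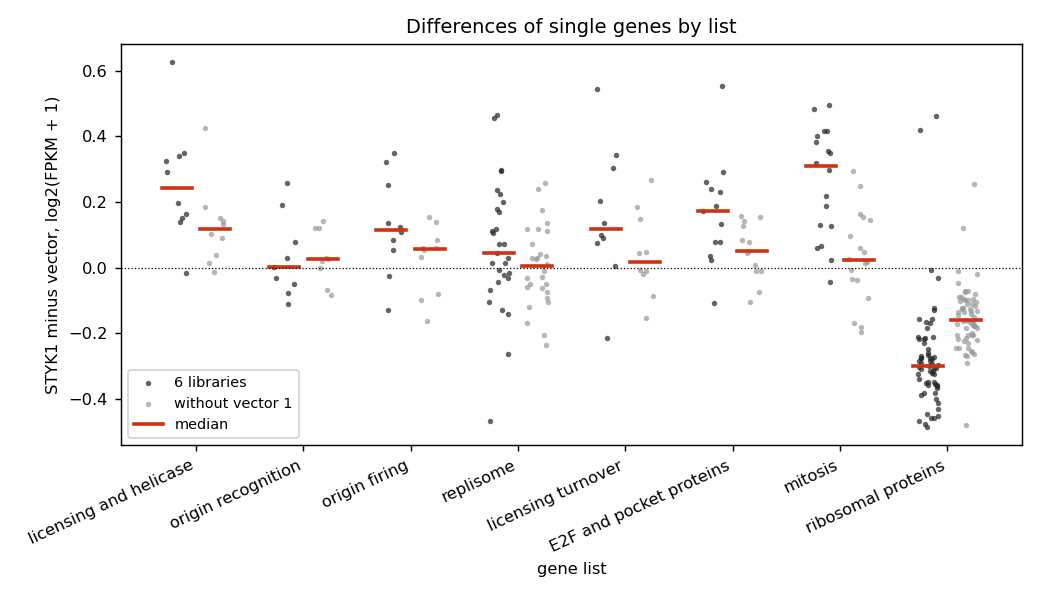
Log2 difference of single genes, STYK1 minus vector on the log2(FPKM + 1) scale, by list, with all libraries (black) and without vector 1 (grey); red lines are medians. The median of the licensing and helicase genes is 0.24 with vector 1 and 0.12 without it, and that of the mitotic genes 0.31 and 0.02.

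Within the ring, the subunits Mcm2 to Mcm6 followed each other across the 6 libraries, with Pearson correlations on the log2(FPKM + 1) scale of 0.862 to 0.989 over their 10 pairs. The correlations of Mcm7 with these 5 were 0.179 to 0.475. Over the 5 libraries without vector 1 the ranges were 0.581 to 0.972 and 0.544 to 0.934. These are descriptions over few libraries that fall into 2 groups and share each library's preparation. The 5 genes outside the 10 that were most like the mean profile of Mcm2 to Mcm7 over the 6 libraries had correlations of 0.994 to 0.997, and of 0.983 to 0.986 without vector 1. They were Rtn4, Tmem117, Hnrnpdl and 2 genes known only by identifier, LOC110343019 and LOC101827366. Rtn4, a shaping protein of the endoplasmic reticulum, was at 144, 173 and 182 FPKM in vector and at 193, 163 and 197 FPKM in STYK1 libraries. Correlations of at least 0.9 with this profile were found for 580 of 11454 other genes (5.06%).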

How the data were processed

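Each of the 6 libraries had its own file of FPKM values, 1 per gene with 2 decimals, deposited by the authors and named so per the file headers. Libraries were made with the Illumina TruSeq kit, per the labels' protocols. Per the submitters' processing notes, Bowtie 0.12.2 and the mouse builds mm8 and mm9 were involved in a way that is not described. Annotation, FPKM software, use of strand and treatment of reads shared between gene copies: not given in the sources used here.

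Of 16078 IDs, 15049 matched the RefSeq gene table of BCM_Maur_2.0, used for names only. The 11464 genes whose mean reached 1 FPKM in either group were fitted with limma-trend (robust empirical Bayes, limma 3.58.1, R 4.3.3) after the transform log2(FPKM + 1), with Benjamini-Hochberg adjustment over all of them. The script was tested on simulated data. The ratio among low values was the inverse of the most frequent FPKM ratio of each library to STYK1 1. It was taken over genes of 0.8 to 6 FPKM in both (bandwidth 0.005 in log2).

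The 10 genes, the lists and the settings were chosen with earlier results of these data known. All 10 are named, and up to 3 members of each other list by smallest p; the 5 most similar genes were taken by Pearson correlation. Alternatives were pseudocounts of 0.1 and 0.5, no filter, 3 scalings, a replicate block, library quality weights and leaving out each library.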

Additional observations from a re-analysis of the deposited data

How the results depend on the processing

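In all alternatives run with limma-trend (pseudocounts, no filter, scalings, replicate block, quality weights, each library left out), 0 of the 10 licensing and helicase genes passed the test. Over all genes the count that passed was 24 with quality weights, 0 to 2 with a library left out (2 without vector 3, without STYK1 1 or without STYK1 3) and 0 in the others. Of 140 values for single genes under an alternative, 135 kept their sign and 5 reversed it. Mcm7 was at 0.0945 with equal FPKM sums, 0.0174 after quantile normalization, 0.0251 with quality weights and -0.0497 to 0.0406 with a library left out (above 0 without STYK1 2). Cdc45 was at -0.0200 to 0.327 with a library left out (below 0 without STYK1 3). With equal FPKM sums, a scaling that raises STYK1 values relative to vector values, all genes had a median of 0.12. The median of the 10 genes was 0.12 to 0.30 with a library left out and 0.16 to 0.35 in the other settings. The number of the 10 genes whose groups did not overlap was 4 with equal FPKM sums (24.4% of all genes higher) and 1 to 6 with a library left out. It was 3 without vector 2 (19.7% of all genes higher), 2 without vector 3 (19.4%), 2 without STYK1 1 (16.6%) and 6 without STYK1 2 (20.6%). The cause of these changes was not tested. The shares over all genes given here were also above the 13.6% found with all libraries as deposited.

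Deviations of same-numbered libraries from their group means correlated at -0.27, -0.16 and 0.11, and vector 1 correlated best with STYK1 2 (0.28). Deviations within a small group are tied to each other, so these values cannot decide whether the replicate numbers of the titles pair the libraries. With the replicate block 0 genes and 0 of the 10 passed (831 genes at an unadjusted p under 0.05, against 1128 without the block), and the median of the 10 stayed at 0.24. Cdc6 then had an unadjusted p of 0.00868 and an adjusted p of 0.581 (limma-trend). Total depth is unknown, which limits what can be said of genes at low FPKM such as Mcm10 and Cdc6.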
